A study of Arabidopsis thaliana with 32 samples.

Results

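The B-box (BBX) family of Arabidopsis was followed in leaf RNA at 4 CO2 levels and under 2 light treatments. Its members were taken by locus identifier, from BBX1 to BBX32, and include CONSTANS (CO) and the CONSTANS-LIKE (COL) genes. Of these 32 genes, 29 are listed among the 21525 genes of the deposited data, and all 29 passed the filter on low values that left 21469 genes. BBX9 (AT4G15250), BBX23 (AT4G10240) and BBX26 (AT1G60250) were not analysed here. RNA was taken from the seventh leaf of wild-type plants (Col-0) aged 6 to 7 weeks and grown in a day of 8 h with a growth light (GL) of 100 µmol photons m−2 s−1. The treatments lasted 3 h at a CO2 level of 0, 100, 400 or 1000 ppm, and were a light regime that photoinhibits photosystem I (PSI-PI) or GL. Each PSI-PI cycle held 3 repeats of dim red light at 660 nm (35 µmol photons for 5 s) with a bright pulse (1000 µmol photons for 1 s, both per m2 and s), and 30 s of growth light. Each of the 8 groups had 4 leaves (32 in all), numbered as replicates, and the other CO2 levels were set against 400 ppm. The study's methods give 4 biological replicates, but the labels do not tie each leaf to a plant or a day. The p-values set each difference against the spread between leaves within groups, pooled over the 8 groups. The questions were how PSI-PI and the CO2 level changed the transcript levels of the family.

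BBX proteins are zinc finger transcription factors that bind other proteins through a B-box and link light to flowering, seedling greening and the circadian clock. Classes I and II carry a pair of B-boxes and a CCT domain, class III a single B-box and a CCT domain, class IV a pair of B-boxes alone and class V a single B-box alone. Many of them act with HY5, a bZIP factor that promotes light-dependent development. BBX20, BBX21 and BBX22 strengthen its action, whereas BBX24, BBX25, BBX28, BBX30, BBX31 and BBX32 oppose it or its partners. COP1 and the SPA proteins mark HY5 and several BBX proteins for degradation in darkness.

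The sequences below belong to the members on which the results turn, and were read from the TAIR10.1 assembly with its RefSeq annotation. BBX30 (AT4G15248, chr4:8708841-8709482, plus strand) and BBX31 (AT3G21890, chr3:7708833-7709933, minus strand) encode the microProteins miP1b and miP1a of 117 and 121 residues, which bind CO and the corepressor TPL. Under PSI-PI, BBX31 was upregulated at 100, 400 and 1000 ppm and BBX30 at 400 and 1000 ppm. Their coding sequences were 71.4% identical over 371 aligned positions, and the 150 bases of the longest stretch aligned without a gap are given 5′ to 3′, with the 37 differing bases in capitals. The stretch covers coding bases 113 to 262 of BBX30 (chr4:8708993-8709142, plus strand) and 110 to 259 of BBX31 (chr3:7709405-7709554, minus strand).
BBX30: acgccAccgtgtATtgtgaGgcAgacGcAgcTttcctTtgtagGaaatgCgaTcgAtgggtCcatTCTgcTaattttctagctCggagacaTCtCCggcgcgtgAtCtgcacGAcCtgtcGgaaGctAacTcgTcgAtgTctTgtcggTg
BBX31: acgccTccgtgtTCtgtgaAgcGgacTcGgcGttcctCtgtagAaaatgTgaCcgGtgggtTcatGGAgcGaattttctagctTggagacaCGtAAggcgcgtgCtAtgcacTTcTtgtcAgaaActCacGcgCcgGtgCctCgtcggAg
No stretch of 31 bases, the default length by which Salmon places a read, was shared between the coding sequence of either gene and that of another member. Over the whole family, such stretches were shared only by BBX4 and BBX5 (5), BBX12 and BBX13 (6), BBX14 and BBX15 (4) and BBX24 and BBX25 (2). BBX30 lies beside BBX9 on chromosome 4 and BBX31 beside BBX10 on chromosome 3.

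BBX14 (AT1G68520, chr1:25708175-25710989, minus strand) and BBX15 (AT1G25440, chr1:8933716-8935544, minus strand) are class III members that both fell under PSI-PI. Their coding sequences were 70.4% identical. In local alignments of the 250 bases before the start of each gene, over all 496 pairs of members, this pair had the highest score, 112 against 39 for the next pair, BBX1 and BBX2. The aligned stretches of 125 bases each were identical at 102 of 130 alignment positions (78.5%), and are given 5′ to 3′ with bases that differ or face a gap in capitals. They lie at chr1:25711068-25711192 (minus strand, 203 to 79 bases before the start of BBX14) and at chr1:8935546-8935670 (minus strand, 126 to 2 bases before the start of BBX15).
BBX14: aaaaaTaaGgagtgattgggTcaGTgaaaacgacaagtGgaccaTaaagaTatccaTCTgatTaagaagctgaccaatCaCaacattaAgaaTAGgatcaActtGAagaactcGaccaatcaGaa
BBX15: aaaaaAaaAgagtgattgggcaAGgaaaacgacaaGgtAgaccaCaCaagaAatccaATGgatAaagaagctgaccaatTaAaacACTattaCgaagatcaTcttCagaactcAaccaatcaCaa
This likeness is a description of the genome and was not part of any test.

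COL2 (BBX3, AT3G02380, chr3:487069-489467, minus strand) is a close relative of CO and was upregulated under PSI-PI at every CO2 level. The 250 bases before its start and before that of BBX30 were searched on both strands for the G-box CACGTG, which HY5 and other factors can bind, the T/G-box CACGTT and the evening element AAATATCT of clock-controlled genes. These motifs do not overlap each other, and their matches are in capitals. The windows are chr3:489468-489717 (minus strand) and chr4:8708591-8708840 (plus strand).
COL2: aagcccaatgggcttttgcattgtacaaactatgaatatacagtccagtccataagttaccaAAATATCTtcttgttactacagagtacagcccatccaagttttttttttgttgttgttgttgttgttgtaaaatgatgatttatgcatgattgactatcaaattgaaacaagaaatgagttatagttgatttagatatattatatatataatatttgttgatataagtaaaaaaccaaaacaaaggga
BBX30: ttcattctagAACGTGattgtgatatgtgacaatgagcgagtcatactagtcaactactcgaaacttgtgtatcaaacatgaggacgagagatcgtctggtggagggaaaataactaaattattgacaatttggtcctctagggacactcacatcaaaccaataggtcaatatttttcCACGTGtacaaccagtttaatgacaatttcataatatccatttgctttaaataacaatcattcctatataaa
An evening element began 188 bases before the start of COL2. A T/G-box began 240 bases and a G-box 72 bases before the start of BBX30. Of the 32 members, 4 held the G-box, 4 the T/G-box and 4 the evening element (12.5% each), against 6.49%, 7.54% and 4.79% of 27443 genes with a full window. BBX8 held 3 evening elements. The other members with a G-box were BBX5, BBX9 and BBX10, and BBX5 and BBX10 were not called for PSI-PI at any CO2 level. BBX10, at 0 to 4.61 normalized counts in all leaves, was too near the floor for its missing call to tell anything. BBX31 and BBX32, which were upregulated under PSI-PI, held none of these motifs. A match to such short letters is a description and not a binding site. Whether these motifs go with the response to PSI-PI was not tested.

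The deposited values are normalized counts, and their totals were 18494378 to 31211055 per leaf. The leaves at 100 ppm had the highest totals, 25856591 to 31211055, and no leaf at another CO2 level was above 24766909. Markers of leaf cells were high: the 5 mesophyll markers (RBCS1A, RCA, LHCB1.1, LHCB2.1 and PSAD1) summed to 377984 to 1450930 normalized counts in PSI-PI-treated leaves and 261115 to 1007890 in GL-treated leaves. These sums hide opposite directions. At 400 ppm, RCA had 267300 to 343526 in PSI-PI-treated leaves and 104266 to 160538 in GL-treated leaves. LHCB1.1 had 14444 to 37868 and 59751 to 69124. LHCB2.1 and PSAD1 were also lower in every PSI-PI-treated leaf there, and RBCS1A overlapped. In PSI-PI-treated leaves, 3 guard cell markers summed to 437 to 1103, 2 phloem markers to 2609 to 4775, 2 epidermis markers to 1873 to 5090.2 and 2 xylem markers to 9.43 to 141. In GL-treated leaves the same sums were 423 to 1113, 2412 to 4335, 1949 to 5477 and 7.97 to 80.8. Of 3 flower markers, none averaged more than 8.38 over all leaves. In such bulk samples, fewer cells of a type and less RNA per cell cannot be told apart, and the part of these marker levels in the results below was not tested. PSI-PI leaf 1 at 0 ppm stood farthest from its group (SD 0.948 on the log2 scale from the median of the other 3 leaves, against 0.448 to 0.751 for the remaining leaves of the series).

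At 400 ppm CO2 in GL-treated leaves the family spanned more than 4 orders of magnitude in level. That span rests on BBX10, which had 0 to 0.961 normalized counts in these leaves. Per kilobase of the longest annotated transcript, 8 members averaged over 1000 normalized counts, 12 averaged 100 to 1000, 6 averaged 10 to 100 and 3 were under 10. The highest were COL4 (BBX5, AT5G24930) at 5197 ± 246, BBX24 (STO, AT1G06040) at 4744 ± 412 and BBX15 (COL16) at 4170.2 ± 198 normalized counts per kb (SD, n = 4). BBX24 is a repressor of HY5 activity, and COL4 delays flowering. The annotated transcript of COL4 holds the coding part alone, so its level per kb may be overstated. The transcript length used when its reads were quantified was not looked at. The lowest were BBX20 (BZS1, AT4G39070) at 6.68 ± 4.30, CO (BBX1, AT5G15840) at 2.43 ± 1.29 and BBX10 (COL12, AT3G21880) at 0.159 ± 0.318. For 20 of the 28 neighbours in this order, the ranges of the 4 leaves overlapped, so their order is not resolved. By class, the median was 1519 in class I, 276 in class II, 983 in class III, 246 in class IV and 121 in class V. The plot of levels shows classes I and IV with members both over 1000 and under 10 per kb, with PSI-PI beside GL. COL2 averaged 208 ± 52.6 per kb in PSI-PI-treated leaves and 44.5 ± 3.30 per kb in GL-treated leaves.

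**Figure D1:**
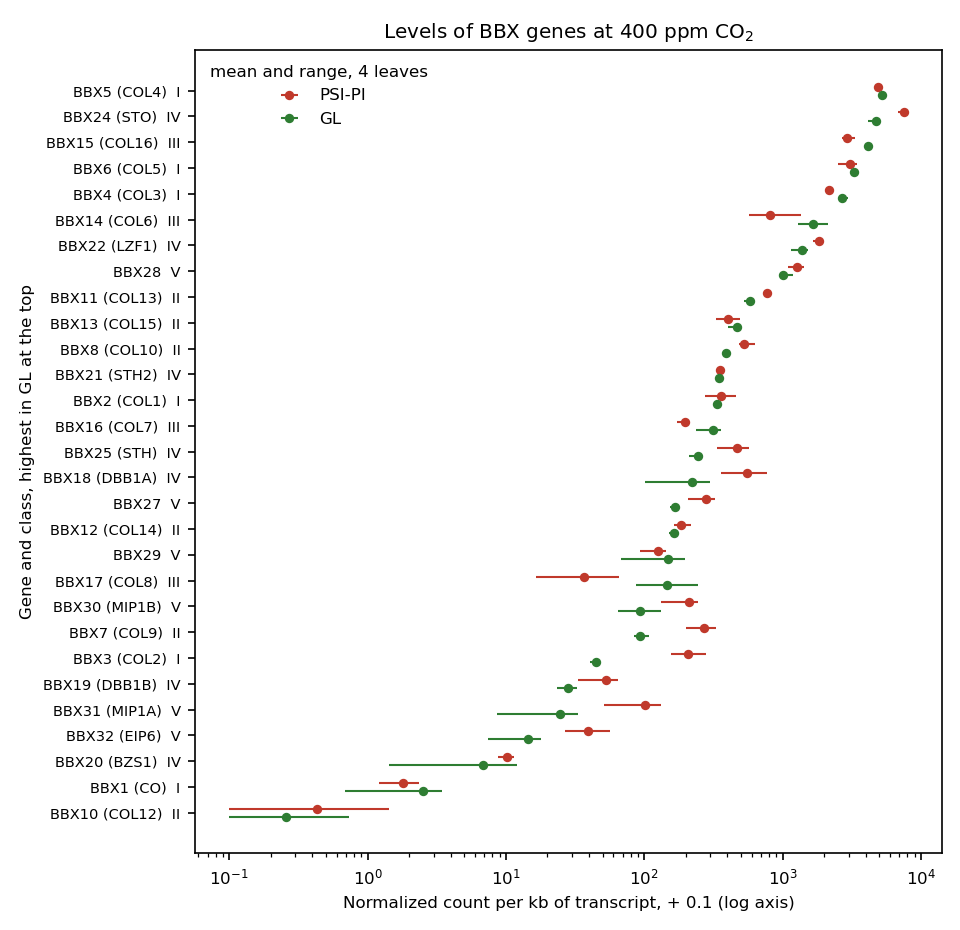
Level of each BBX gene at 400 ppm CO2 (normalized count per kb of transcript plus 0.1, log axis), with PSI-PI above GL in each row, points for the mean and lines for the range of 4 leaves. COL4, BBX24 and BBX15 lead the order in GL-treated leaves, and CO and BBX10 are under 10 per kb.

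PSI-PI against GL was compared at each CO2 level. At 400 ppm, 14 of the 29 members were upregulated and 5 were downregulated (limma adjusted p under 0.05), where 13.8% of all genes tested were higher and 11.0% lower. At 100 ppm, 7 members were upregulated and 4 downregulated, beside 6.64% and 3.13% of all genes. At 1000 ppm, 9 were upregulated and 3 downregulated, beside 6.89% and 3.57%. At 0 ppm, 3 were upregulated and 4 downregulated, beside 4.51% and 2.53%. With a change of at least 2-fold in addition, 2 members were called at 0 ppm (1 up, 1 down), 6 at 100 ppm (4 up, 2 down), 8 at 400 ppm (6 up, 2 down) and 6 at 1000 ppm (5 up, 1 down), where 1.34%, 2.06%, 6.19% and 2.62% of all genes passed in either direction. The median log2 fold change of the members was −0.06 at 0 ppm, 0.09 at 100 ppm, 0.33 at 400 ppm and 0.11 at 1000 ppm, and that of all genes lay between −0.01 and 0.00. In a fit of only the 8 leaves compared, 1 member (BBX15) was called at 0 ppm and 6 at 1000 ppm, and without the leaves numbered 1 of all groups, 11 were called at 0 ppm. At 400 ppm, leaving out any single leaf gave 14 to 16 calls, against 19 with all leaves.

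**Figure D2:**
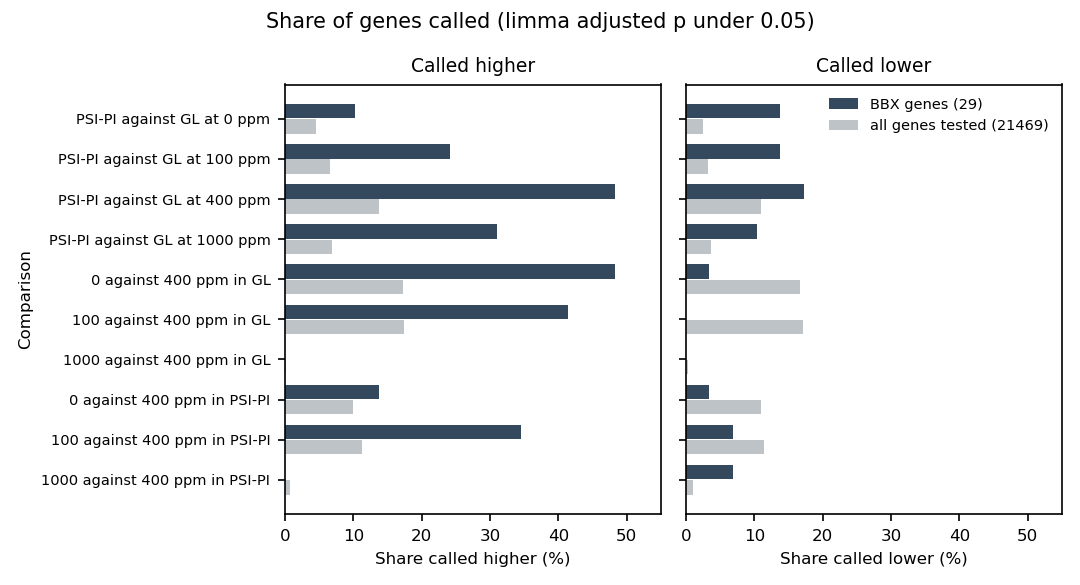
Share of the 29 BBX genes (dark bars) and of the 21469 genes tested (pale bars) that were called higher (left) and lower (right) in each comparison, in percent. In PSI-PI against GL at 400 ppm the shares called higher were 48.3% of BBX genes and 13.8% of all genes, and at 1000 against 400 ppm in GL no BBX gene was called.

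By class, the direction differed. All 4 members of class III were downregulated at 400 ppm, 3 at 100 ppm and 2 each at 0 and 1000 ppm, and none was upregulated at any level. In class IV, 5 of 7 members were upregulated at 400 ppm and 4 each at 100 and 1000 ppm, and none was downregulated there. In class V, 5 of 6 were upregulated at 400 ppm, 3 at 1000 ppm, 2 at 100 ppm and 1 at 0 ppm, and none was downregulated. At 0 ppm, class IV had 1 member up and 1 down. Class I had 1 member up and 1 down at 0, 100 and 400 ppm, and 2 up and 1 down at 1000 ppm. In class II, the single level with calls was 400 ppm, with 3 of 6 upregulated. COL2 was upregulated and BBX15 downregulated at all 4 CO2 levels, where 1.46% of all genes were called higher and 0.298% lower at all 4. The map of fold changes shows these blocks by class.

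**Figure D3:**
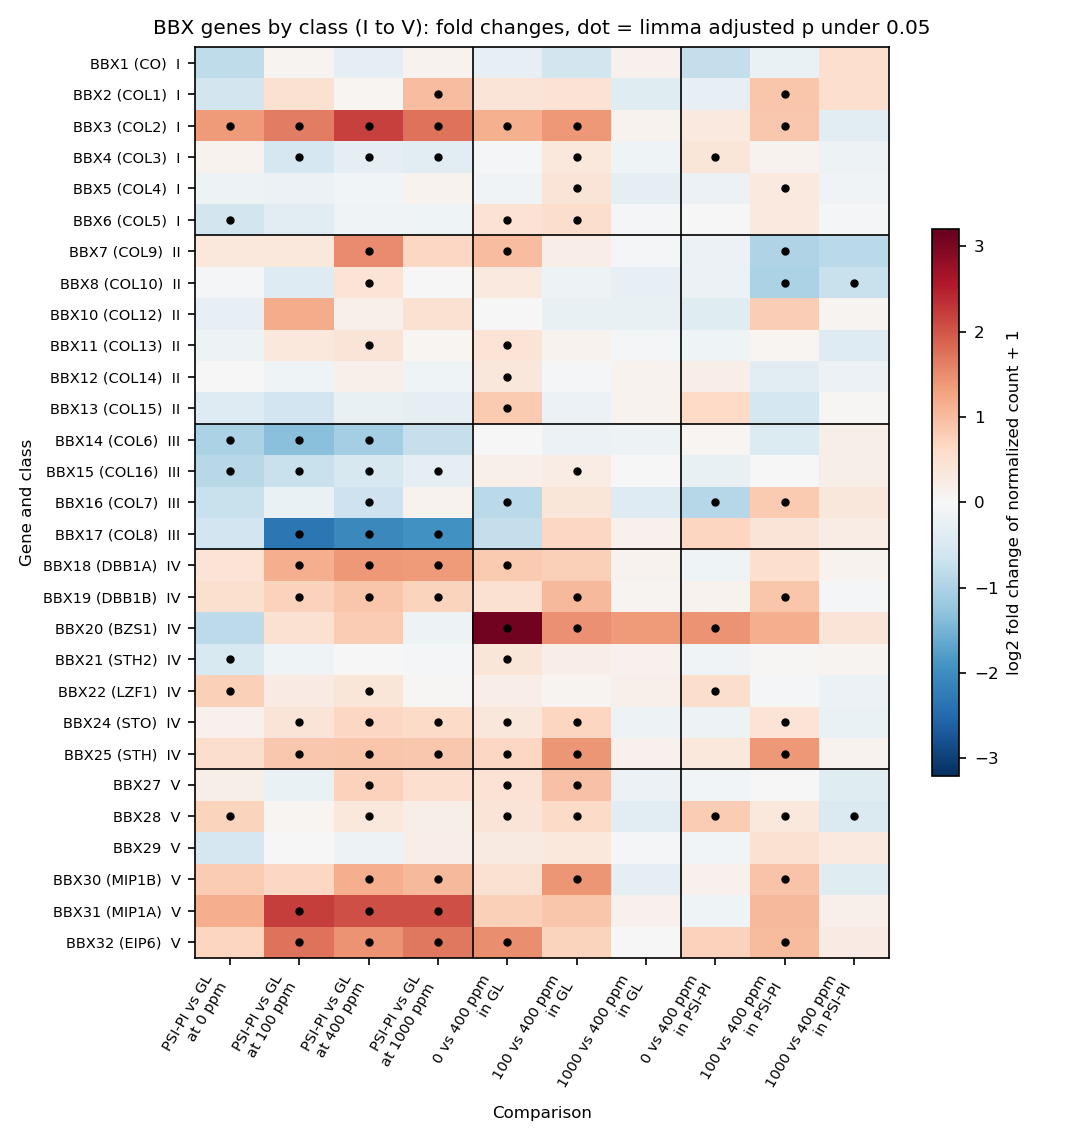
Log2 fold change of each BBX gene (rows, grouped by class I to V) in the 10 comparisons (columns), from blue (lower in the group named first) to red (higher), with a dot where the limma adjusted p was under 0.05. Class III is blue in the columns of PSI-PI against GL at 0, 100 and 400 ppm, while COL2 and most of classes IV and V are red.

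COL2 rose under PSI-PI at each CO2 level. At 400 ppm its normalized counts were 354, 419, 632 and 475 in PSI-PI-treated leaves, against 98.2, 90.8, 105 and 107 in GL-treated leaves (log2 fold change 2.19 ± 0.28 (SE), limma adjusted p = 1.83e-06). At 100 ppm they were 997, 726, 751 and 882 in PSI-PI-treated leaves, against 279, 317, 265 and 212 in GL-treated leaves (log2 fold change 1.65 ± 0.28 (SE), limma adjusted p = 0.000461). At 1000 ppm they were 278, 354, 411 and 436 in PSI-PI-treated leaves and 166, 99.6, 77.8 and 109 in GL-treated leaves (log2 fold change 1.73 ± 0.28 (SE), limma adjusted p = 0.000119). At these 3 levels every PSI-PI-treated leaf lay above every GL-treated leaf. At 0 ppm the values were 232, 707, 822 and 776 in PSI-PI-treated leaves, against 197, 176, 310.3 and 219 in GL-treated leaves (log2 fold change 1.36 ± 0.28 (SE), limma adjusted p = 0.00332). There, leaf 1 of the PSI-PI group lay among the GL-treated leaves while the other 3 were above all of them. Without that leaf the log2 fold change at 0 ppm was 1.79, and the call was lost in the fit of only the 8 leaves compared (adjusted p = 0.25).

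Other class I members moved less. COL1 (BBX2, AT5G15850), which lies near CO on chromosome 5, was upregulated at 1000 ppm (log2 fold change 0.99 ± 0.26 (SE), limma adjusted p = 0.0126), with 719, 1049, 789 and 946 normalized counts in PSI-PI-treated leaves and 445, 448, 481 and 379 in GL-treated leaves. Without PSI-PI leaf 2 this call was lost (adjusted p = 0.0511). COL3 (BBX4, AT2G24790), which promotes red light responses, was downregulated at 100 ppm (log2 fold change −0.54 ± 0.11 (SE), limma adjusted p = 0.00172), 400 ppm (log2 fold change −0.32) and 1000 ppm (−0.33). The last of these calls was lost in 7 of 8 fits without a single leaf, and that at 400 ppm in 3 of 8. COL3 is abundant, with 2767, 2813, 2907 and 2774 in PSI-PI-treated leaves and 4770.3, 4342, 3694 and 3646 in GL-treated leaves at 100 ppm. COL5 (BBX6, AT5G57660) fell at 0 ppm (log2 fold change −0.59 ± 0.12 (SE), limma adjusted p = 0.00377), a call that only the 8-leaf fit lost (adjusted p = 0.258). COL4 was not called in any light comparison, with log2 fold changes of −0.16, −0.18, −0.09 and 0.11 at 0, 100, 400 and 1000 ppm.

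In class V, the microProtein genes and BBX32 (EIP6, AT3G21150), which binds BBX21 and limits HY5 activity, rose under PSI-PI at some CO2 levels. BBX31 had 56.7, 145, 138 and 104 normalized counts in PSI-PI-treated leaves at 400 ppm, against 9.39, 30.3, 33.0 and 36.2 in GL-treated leaves (log2 fold change 2.06 ± 0.38 (SE), limma adjusted p = 0.000229). At 100 ppm BBX31 had 218, 207, 219 and 212 in PSI-PI-treated leaves and 30.8, 61.4, 56.4 and 39.9 in GL-treated leaves (log2 fold change 2.21 ± 0.38 (SE), limma adjusted p = 0.000589). At 1000 ppm it had 56.5, 127, 164 and 155 in PSI-PI-treated leaves and 23.9, 22.9, 27.0 and 35.3 in GL-treated leaves (log2 fold change 2.07 ± 0.38 (SE), limma adjusted p = 0.00057). The PSI-PI-treated leaves lay above the GL-treated leaves at all 3 levels, and leaf 1 was the lowest of its PSI-PI group at 400 and 1000 ppm. At 0 ppm, the values were 93.1, 93.9, 119.8 and 77.5 in PSI-PI-treated leaves and 20.4, 66.6, 65.5 and 34.1 in GL-treated leaves, which do not overlap either, but the difference was not called (log2 fold change 1.16 ± 0.38, limma adjusted p = 0.063). It was called without GL leaf 2 (adjusted p = 0.0323), without GL leaf 3 (0.0494) and without all leaves numbered 1 (0.0376).

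BBX32 had 116, 85.7, 92.3 and 106 normalized counts in PSI-PI-treated leaves at 100 ppm, against 17.6, 32.4, 33.8 and 36.6 in GL-treated leaves (log2 fold change 1.74 ± 0.34 (SE), limma adjusted p = 0.00174). At 1000 ppm, BBX32 had 27.4, 69.8, 95.8 and 61.2 in PSI-PI-treated leaves and 12.9, 13.1, 20.1 and 26.6 in GL-treated leaves (log2 fold change 1.68 ± 0.34 (SE), limma adjusted p = 0.00148). Every PSI-PI-treated leaf was above every GL-treated leaf at both levels, and leaf 1 was lowest in the PSI-PI group at 1000 ppm. At 400 ppm BBX32 also rose (log2 fold change 1.43 ± 0.34 (SE), limma adjusted p = 0.00261), with 34.3, 73.1, 48.6 and 45.5 in PSI-PI-treated leaves and 9.38, 22.0, 19.2 and 22.8 in GL-treated leaves. BBX32 was not called at 0 ppm, where the leaves overlapped. It had 75.7, 71.1, 105 and 78.4 there in PSI-PI-treated leaves and 75.0, 36.7, 70.1 and 32.9 in GL-treated leaves. BBX30 rose at 400 ppm (log2 fold change 1.16 ± 0.29 (SE), limma adjusted p = 0.00407) and 1000 ppm (log2 fold change 1.05 ± 0.29, limma adjusted p = 0.0189). Its values were 84.3, 144, 155 and 157 in PSI-PI-treated leaves at 400 ppm and 41.6, 51.5, 84.5 and 63.6 in GL-treated leaves, where the highest GL-treated leaf (84.5) reached the lowest PSI-PI-treated leaf (84.3). The call of BBX30 at 1000 ppm was lost without GL leaf 2 (log2 fold change 0.88, adjusted p = 0.079) or PSI-PI leaf 4 (0.72, 0.109). BBX30 was not called at 0 ppm, where the leaves overlapped, or at 100 ppm, where they did not. The 8-leaf fit called it at 100 ppm (log2 fold change 0.65, limma adjusted p = 0.013). BBX28 (AT4G27310), which hinders DNA binding by HY5, rose at 0 ppm (log2 fold change 0.72 ± 0.12 (SE), limma adjusted p = 0.000286) and 400 ppm (0.33, lost in 6 of 8 fits without a single leaf), and BBX27 (AT1G68190) at 400 ppm (log2 fold change 0.73 ± 0.18 (SE), limma adjusted p = 0.0029). BBX29 (AT5G54470) was not called in any of the 4 light comparisons (log2 fold changes −0.53 to 0.21).

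**Figure D4:**
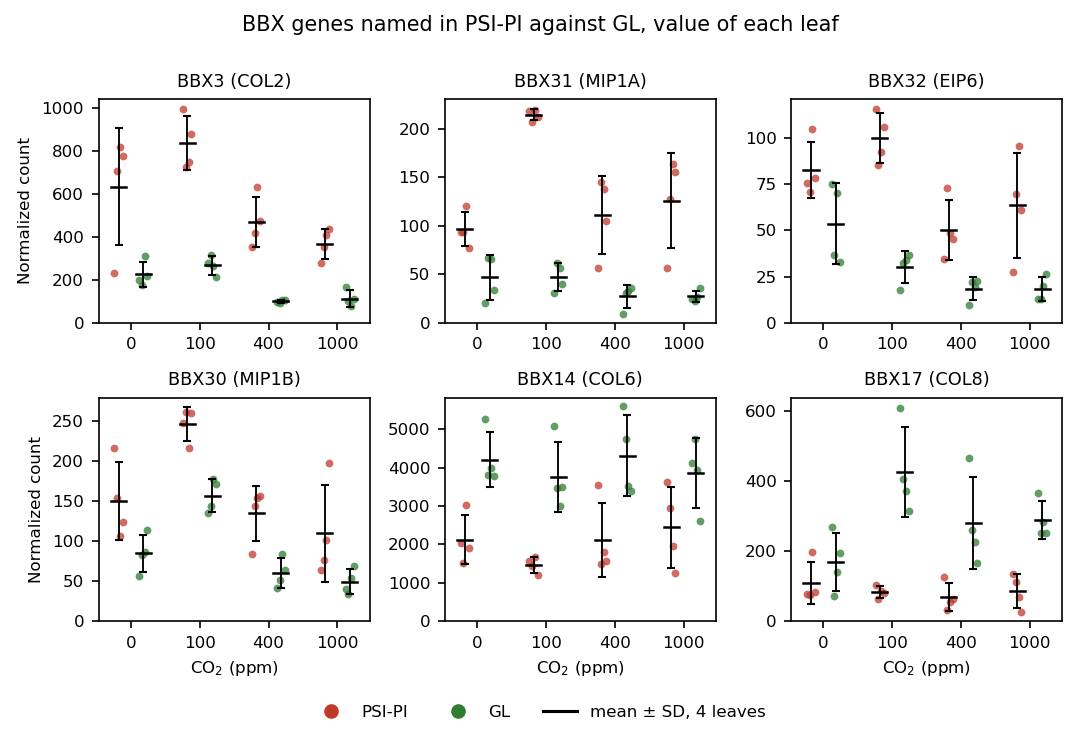
Normalized counts of 6 BBX genes by CO2 level (ppm), with PSI-PI left of GL at each level; points are leaves and bars the mean ± SD of 4 leaves. COL2, BBX31, BBX32 and BBX30 are higher under PSI-PI, BBX14 and BBX17 lower, and COL2 in PSI-PI leaf 1 at 0 ppm (232) lies among the GL-treated leaves.

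Class III fell. BBX17 (COL8, AT1G49130) had 103, 62.3, 87.7 and 79.3 normalized counts in PSI-PI-treated leaves at 100 ppm, against 607, 405, 371 and 315 in GL-treated leaves (log2 fold change −2.32 ± 0.44 (SE), limma adjusted p = 0.00117). At 400 ppm it had 126, 31.2, 55.4 and 64.9 in PSI-PI-treated leaves and 466, 261, 226 and 167 in GL-treated leaves (log2 fold change −2.07 ± 0.44 (SE), limma adjusted p = 0.000834). At 1000 ppm it had 136, 112, 68.1 and 27.1 in PSI-PI-treated leaves and 365, 251, 282 and 252 in GL-treated leaves (log2 fold change −1.94 ± 0.44 (SE), limma adjusted p = 0.00376). No leaf of the PSI-PI groups reached the GL groups at these levels, and leaf 1 was the highest of its group in all 6. At 0 ppm the groups overlapped, with 78.7, 75.7, 198 and 83.3 in PSI-PI-treated leaves and 269, 72.5, 139.7 and 195 in GL-treated leaves, and BBX17 was not called (log2 fold change −0.60 ± 0.44).

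BBX14 (COL6) had 1577, 1432, 1669.9 and 1196 normalized counts in PSI-PI-treated leaves at 100 ppm, against 5089, 3471, 2998 and 3486 in GL-treated leaves (log2 fold change −1.34 ± 0.28 (SE), limma adjusted p = 0.00283). At 400 ppm it had 3548, 1505, 1816 and 1569 in PSI-PI-treated leaves and 5595, 4759, 3519 and 3391 in GL-treated leaves (log2 fold change −1.10 ± 0.28 (SE), limma adjusted p = 0.00462). Here PSI-PI leaf 1 lay between the GL-treated leaves, and the other 3 were below all of them. At 0 ppm it had 2042, 1527, 3029 and 1912 in PSI-PI-treated leaves and 5272, 3796, 3989 and 3783 in GL-treated leaves (log2 fold change −1.02 ± 0.28 (SE), limma adjusted p = 0.0255), without overlap. That call was lost without GL leaf 1 (log2 fold change −0.90, adjusted p = 0.0983), without PSI-PI leaf 2 (−0.87, 0.0813), without PSI-PI leaf 4 (−0.98, 0.0575) and in the 8-leaf fit (adjusted p = 0.126). At 1000 ppm BBX14 was not called (log2 fold change −0.74 ± 0.28, limma adjusted p = 0.0958), but it was under quantile normalization (adjusted p = 0.0303), without PSI-PI leaf 1 (0.0275) and without all leaves numbered 1 (0.0202). BBX15 fell at all 4 levels, with log2 fold changes of −0.90, −0.72, −0.51 and −0.29 from 0 to 1000 ppm. At 0 ppm its normalized counts were 4685, 3899.6, 4375 and 4426 in PSI-PI-treated leaves and 7932, 7828, 8186 and 8386 in GL-treated leaves (limma adjusted p = 2.3e-07). At 1000 ppm they were 6539, 6310.0, 5390.0 and 5204 in PSI-PI-treated leaves and 7115, 7108, 6921 and 7396 in GL-treated leaves (limma adjusted p = 0.0346), and that call was lost in 6 of 8 fits without a single leaf (adjusted p up to 0.129). BBX16 (COL7, AT1G73870), which acts downstream of GLK1 in seedlings, was at the threshold at 400 ppm (log2 fold change −0.67 ± 0.25 (SE), limma adjusted p = 0.04995), and that call was lost in 7 of 8 fits without a single leaf.

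Most of class IV rose at 400 ppm, and 4 of its 7 members at 100 and 1000 ppm. BBX18 (DBB1A, AT2G21320) and BBX19 (DBB1B, AT4G38960), which restrain light responses of seedlings, were called at these 3 levels. BBX18 had 394, 840.4, 651 and 536 normalized counts in PSI-PI-treated leaves at 400 ppm and 109.9, 230.4, 329 and 296 in GL-treated leaves (log2 fold change 1.38 ± 0.31 (SE), limma adjusted p = 0.00162). Its log2 fold changes at 100 and 1000 ppm were 1.16 and 1.37. BBX19 had 56.7, 93.2, 103 and 111 in PSI-PI-treated leaves and 53.8, 55.5, 42.6 and 40.1 in GL-treated leaves at 400 ppm (log2 fold change 0.88 ± 0.20 (SE), limma adjusted p = 0.0017). BBX24 and BBX25 (STH, AT2G31380), a pair of related HY5 repressors, were called at the same 3 levels, by 0.42, 0.67 and 0.62 for BBX24 and by 0.86, 0.89 and 0.87 for BBX25 on the log2 scale. At 100 ppm the calls of BBX18, BBX24 and BBX19 were lost in 1, 2 and 4 of 8 fits without a single leaf, each time with the highest adjusted p without a leaf 1 (0.0741, 0.0918 and 0.0806), and at 1000 ppm that of BBX19 in 3 of 8. Quantile normalization lost BBX24 at 100 ppm (adjusted p = 0.347), and the 8-leaf fit lost BBX18 (0.0573), BBX19 (0.108) and BBX25 (0.0508) at 1000 ppm. The HY5 cofactor BBX22 (LZF1, AT1G78600) rose at 0 ppm (log2 fold change 0.76 ± 0.11 (SE), limma adjusted p = 0.000131) and by 0.40 at 400 ppm, whereas BBX21 (STH2, AT1G75540) was downregulated at 0 ppm alone (log2 fold change −0.48 ± 0.12 (SE), limma adjusted p = 0.0131). Without GL leaf 1 at 0 ppm, the call of BBX21 was lost (adjusted p = 0.0502), and that of BBX22 at 400 ppm was lost without GL leaf 4 (0.0607) and under quantile normalization (0.0807). BBX20 was not called at any level, with log2 fold changes of −0.83 to 0.81 and an SE of 0.47.

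Among class II members, BBX7 (COL9, AT3G07650) rose at 400 ppm. It had 674, 410.0, 542 and 574 normalized counts in PSI-PI-treated leaves and 223, 174, 183 and 182 in GL-treated leaves (log2 fold change 1.51 ± 0.26 (SE), limma adjusted p = 9.19e-05), without overlap. At 1000 ppm the groups overlapped, with 283, 397, 382 and 179 in PSI-PI-treated leaves and 188, 245, 171 and 150.4 in GL-treated leaves (log2 fold change 0.67 ± 0.26, not called), and BBX7 was called without PSI-PI leaf 4 (0.91, adjusted p = 0.0277). BBX8 (COL10, AT5G48250) and BBX11 (COL13, AT2G47890) were called at 400 ppm with 0.44 and 0.42, and these calls were lost in 8 and 5 of 8 fits without a single leaf. BBX7 and BBX8 are known as regulators of flowering and cold tolerance. BBX12 (COL14, AT2G33500) and BBX13 (COL15, AT1G28050) were not called in any light comparison.

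Whether the response to PSI-PI at 0, 100 or 1000 ppm differed from that at 400 ppm was tested as an interaction. No member was called by limma in any of the 3 tests, beside 3.00% of all genes at 0 ppm, 0.0466% at 100 ppm and 0% at 1000 ppm. At an unadjusted p under 0.05, 15, 3 and 4 of the 29 members passed at 0, 100 and 1000 ppm, beside 17.2%, 11.6% and 7.66% of all genes. The lowest adjusted p was that of BBX7 at 0 ppm, where its response differed by −1.18 ± 0.37 on the log2 scale from that at 400 ppm (limma adjusted p = 0.0778). Single leaves moved this count. Without GL leaf 1 at 0 ppm, BBX7 and BBX24 were called, without PSI-PI leaf 1 BBX7 was called, and without PSI-PI leaf 4 BBX6, BBX21 and BBX24 were called. Without all leaves numbered 1, BBX7, BBX8, BBX18 and BBX20 were called at 0 ppm. At 100 ppm, BBX7, BBX8 and BBX27 were called in a fit of only the leaves compared. A difference in the PSI-PI response between 0 and 400 ppm was thus not called for any member in the fit of all leaves.

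The CO2 level was compared with 400 ppm within each light. These comparisons share the 400 ppm leaves of their light. In GL-treated leaves, 14 members were upregulated and 1 was downregulated at 0 ppm, beside 17.2% and 16.6% of all genes. At 100 ppm, 12 were upregulated and none was downregulated, beside 17.4% and 17.1%. At 1000 ppm no member was called by limma in either direction, beside 0.177% higher and 0.200% lower of all genes, and 3 members (BBX5, BBX20 and BBX28) had an unadjusted p under 0.05, as did 10.5% of all genes. With a 2-fold change in addition, 3 members passed at 0 ppm, 5 at 100 ppm and 0 at 1000 ppm, all upward, beside 10.2%, 8.15% and 0.233% of all genes in either direction. The median log2 fold change of the members was 0.41 at 0 and 100 ppm and −0.03 at 1000 ppm, against 0.003, 0.015 and 0.001 for all genes. The calls at 0 ppm lay in classes I (2), II (4), IV (5) and V (3) upward and class III (1) downward, and those at 100 ppm in classes I (4), III (1), IV (4) and V (3).

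BBX20, a positive regulator of seedling greening that brassinosteroid represses, rose most at 0 ppm. It had 119, 54.2, 72.0 and 62.7 normalized counts in GL-treated leaves at 0 ppm, against 16.9, 9.17, 10.1 and 1.90 at 400 ppm (log2 fold change 3.09 ± 0.47 (SE), limma adjusted p = 2.49e-05). The lowest leaf at 0 ppm was above the highest at 400 ppm. At 100 ppm it had 54.0, 20.8, 12.5 and 20.5 in GL-treated leaves (log2 fold change 1.47 ± 0.47 (SE), limma adjusted p = 0.0163), which overlapped the 400 ppm leaves. This call at 100 ppm was lost without leaf 1 at 100 ppm (log2 fold change 1.08, adjusted p = 0.0943) or leaf 4 at 400 ppm (0.94, 0.115), a leaf with 1.90 normalized counts, and in the 8-leaf fit (0.0824). At 1000 ppm it had 15.5, 35.2, 24.8 and 16.1 (log2 fold change 1.37 ± 0.47, limma adjusted p = 0.252), and was called without the leaves numbered 1 of all groups (1.87, adjusted p = 0.0273). COL2 rose at 0 ppm (log2 fold change 1.13 ± 0.28 (SE), limma adjusted p = 0.00274) and at 100 ppm (log2 fold change 1.40 ± 0.28 (SE), limma adjusted p = 0.000318), and each of these leaves lay above the highest at 400 ppm (107). BBX32 had 75.0, 36.7, 70.1 and 32.9 at 0 ppm against 9.38, 22.0, 19.2 and 22.8 at 400 ppm (log2 fold change 1.48 ± 0.34 (SE), limma adjusted p = 0.00155), without overlap.

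At 100 ppm, BBX25 and BBX30 led the rise in GL-treated leaves after BBX20. BBX25 had 782, 823, 819 and 887 normalized counts at 100 ppm, against 311, 269, 331 and 336 at 400 ppm (log2 fold change 1.41 ± 0.18 (SE), limma adjusted p = 8.62e-07). BBX30 had 135, 144, 177 and 172 at 100 ppm, against 41.6, 51.5, 84.5 and 63.6 at 400 ppm (log2 fold change 1.41 ± 0.29 (SE), limma adjusted p = 0.000455). In both genes all 4 leaves at 100 ppm were above all 4 at 400 ppm. BBX19 rose by 1.04, BBX27 by 0.95, BBX24 by 0.68 and BBX28 by 0.61 on the log2 scale, and COL5, COL4, COL3 and BBX15 by 0.56, 0.41, 0.33 and 0.23. Quantile normalization, under which 9 members were called, removed the calls of COL4, COL3 and BBX15. With single leaves left out, the call of BBX15 was lost in 7 of 8 fits and that of COL3 in 2. At 0 ppm the further calls were BBX7 (1.00), BBX13 (0.84), BBX18 (0.83), BBX25 (0.67), COL5 (0.46), BBX27 (0.46), BBX11 (0.44), BBX28 (0.42), BBX21 (0.39), BBX12 (0.37) and BBX24 (0.36) upward and BBX16 (−0.86) downward. With single leaves left out, those of BBX27, BBX12, BBX18, BBX11 and BBX24 were lost in 7, 6, 5, 3 and 2 of 8 fits. BBX13 and BBX16 were lost without leaf 2 at 0 ppm (adjusted p = 0.0599 and 0.0514). For BBX18 the log2 fold change was 0.49 without leaf 1 at 400 ppm (adjusted p = 0.227), and the 8-leaf fit lost BBX18 (0.122) and BBX24 (0.0820). BBX16 had 332, 189, 339 and 336 normalized counts at 0 ppm and 403, 561, 609.8 and 573 at 400 ppm.

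Under PSI-PI, 4 members were upregulated and 1 downregulated at 0 ppm, beside 9.99% and 11.0% of all genes. At 100 ppm, 10 were upregulated and 2 downregulated, beside 11.2% and 11.4%. At 1000 ppm none was upregulated and 2 were downregulated, beside 0.671% and 1.01%. With a 2-fold change in addition, 1 member passed at 0 ppm, 3 at 100 ppm and 0 at 1000 ppm, beside 4.68%, 4.64% and 0.461% of all genes. The median log2 fold change of the members was −0.08, 0.35 and 0.03 at 0, 100 and 1000 ppm, against 0, 0.03 and 0.00 for all genes. At 0 ppm 13.8% of members were called higher and 3.4% lower. The count at 100 ppm fell to 6 without leaf 1 at 100 ppm and to 7 without leaf 1 at 400 ppm. That at 0 ppm fell to 3 without leaf 1 at 0 ppm and to 1 in the 8-leaf fit. The 2 calls at 1000 ppm were lost in 6 of 8 fits without a single leaf for each gene, and the count ranged between 0 and 3. Both were also lost in the 8-leaf fit.

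Under PSI-PI, BBX25 had the largest called rise at 100 ppm and BBX8 the largest called fall. BBX25 had 1715, 1392, 1338 and 1593 normalized counts at 100 ppm, against 424, 515, 722 and 708 at 400 ppm (log2 fold change 1.38 ± 0.18 (SE), limma adjusted p = 5.01e-06). BBX8 had 415, 481, 552 and 467 at 100 ppm, against 1150.5, 902, 883 and 911 at 400 ppm (log2 fold change −1.003 ± 0.16 (SE), limma adjusted p = 7.21e-05). In both, no leaf at 100 ppm reached the range at 400 ppm. BBX32 had 116, 85.7, 92.3 and 106 at 100 ppm, against 34.3, 73.1, 48.6 and 45.5 at 400 ppm (log2 fold change 1.02 ± 0.34 (SE), limma adjusted p = 0.0317), again without overlap, but 6 of 8 fits without a single leaf lost this call (adjusted p up to 0.108, without leaf 1 at 400 ppm). BBX7 fell as well (log2 fold change −0.96 ± 0.26 (SE), limma adjusted p = 0.00862). COL1, COL2, BBX19, BBX30, BBX16, BBX24, BBX28 and COL4 rose by 0.88, 0.86, 0.90, 0.90, 0.84, 0.44, 0.35 and 0.32 on the log2 scale. Quantile normalization removed the calls of BBX24 (adjusted p = 0.234), BBX28 (0.127) and COL4 (0.531). Of these 8 rises, all but BBX19 and BBX24 were lost in at least 1 of 8 fits without a single leaf, BBX28 and COL4 in 4 each and BBX30 in 3. The call of COL2 was lost in 4 of these 8 fits (without leaf 1 or leaf 4 at 100 ppm, or leaf 1 or leaf 2 at 400 ppm, with adjusted p of 0.0587 to 0.0933).

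BBX20 rose at 0 ppm in PSI-PI-treated leaves also. It had 87.1, 26.7, 51.5 and 22.7 normalized counts at 0 ppm, against 13.0, 16.2, 16.2 and 12.4 at 400 ppm (log2 fold change 1.44 ± 0.47 (SE), limma adjusted p = 0.0307), and the lowest leaf at 0 ppm was above the highest at 400 ppm. This call was lost in 5 of 8 fits without a single leaf, with adjusted p between 0.0604 and 0.148, the highest without leaf 1 at 0 ppm. BBX28, BBX22 and COL3 rose at 0 ppm by 0.82, 0.56 and 0.40 on the log2 scale and BBX16 fell by 0.92. Without leaf 1 at 0 ppm, the calls of COL3 (limma adjusted p = 0.0604) and BBX16 (0.0659) were lost. The 8-leaf fit lost those of BBX22 (limma adjusted p = 0.0744), COL3 (0.140) and BBX16 (0.108). BBX28 had 3966, 2972, 3012 and 2899.9 normalized counts at 0 ppm and 1563, 1874, 2033 and 1787 at 400 ppm (limma adjusted p = 3.77e-05). At 1000 ppm, BBX8 and BBX28 were lower (−0.70 and −0.47, limma adjusted p = 0.0301 and 0.0377). BBX8 had 677, 688, 576 and 439.8 there, against 1150.5, 902, 883 and 911 at 400 ppm.

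**Figure D5:**
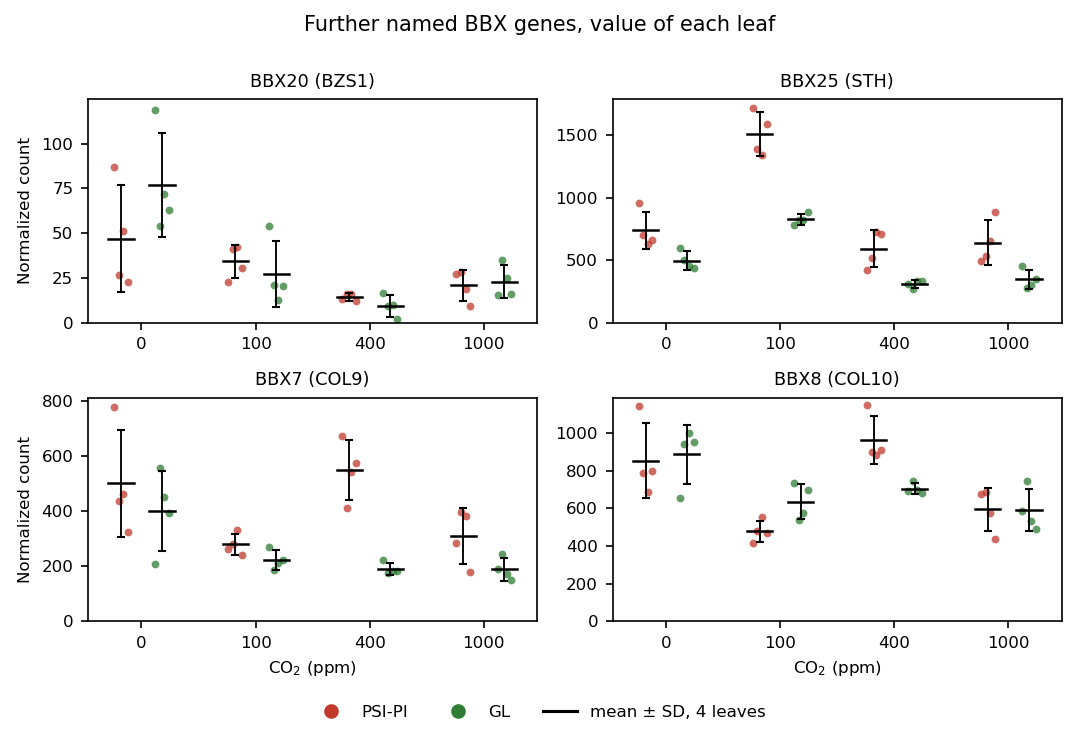
Normalized counts of BBX20, BBX25, BBX7 and BBX8 by CO2 level (ppm), with PSI-PI left of GL at each level; points are leaves and bars the mean ± SD of 4 leaves. The mean of BBX20 is highest at 0 ppm and that of BBX25 at 100 ppm in both lights. In PSI-PI-treated leaves, BBX20 at 0 ppm (22.7 to 87.1) overlaps 100 ppm (22.8 to 42.2) and 1000 ppm (9.58 to 28.1), and these levels were not compared with 0 ppm. BBX8 in PSI-PI-treated leaves averages 479 ± 56.5 at 100 ppm and 961 ± 127 at 400 ppm.

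Over the 10 comparisons between groups, CO, BBX10 and BBX29 were called in none. CO, which activates the florigen gene FT in the phloem in long days, stayed at 0 to 14.6 normalized counts in all leaves, and BBX10 at 0 to 4.61. BBX10 was called for PSI-PI at 100 ppm in the fit without PSI-PI leaf 2 (log2 fold change 1.57, adjusted p = 0.0307). BBX29 had 77.9 to 268 normalized counts, log2 fold changes of −0.53 to 0.49 over these comparisons and an SE of 0.27.

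Partners and regulators of the family were counted from a list of 11 genes (HY5, HYH, COP1, SPA1 to SPA4, GLK1, GLK2, TPL and FT). In PSI-PI against GL, 3 were upregulated and 2 downregulated at 0 ppm, 7 and 0 at 100 ppm, 6 and 1 at 400 ppm and 6 and 0 at 1000 ppm. Their median log2 fold changes were 0.15, 0.55, 0.39 and 0.39 from 0 to 1000 ppm, beside medians of all genes between −0.01 and 0.00. HY5 (AT5G11260) had 252, 364, 477 and 509.6 normalized counts in PSI-PI-treated leaves at 400 ppm, against 56.1, 68.3, 76.5 and 75.9 in GL-treated leaves (log2 fold change 2.48 ± 0.29, limma adjusted p = 5.05e-07). At 0 ppm HY5 had 791, 492, 261 and 310.1 in PSI-PI-treated leaves and 67.6, 155, 119 and 135 in GL-treated leaves (1.88), without overlap. At 100 and 1000 ppm its log2 fold changes were 2.01 and 1.97. The relative HYH rose by 1.70, 2.06, 2.26 and 2.55 from 0 to 1000 ppm. SPA3, a partner of COP1, rose by 0.76, 1.19, 1.66 and 1.61. GLK1, an activator of photosynthesis genes, was downregulated at 0 ppm (−1.08) and 400 ppm (−0.48), and GLK2 at 0 ppm (−0.38). HYH, SPA3, GLK1 and GLK2 are named here after their values were seen. FT stayed at 0 to 3.49 normalized counts. In the CO2 comparisons, 1 of the 11 was up and none down at 0 ppm in GL, 2 and 2 at 100 ppm, and none at 1000 ppm, and in PSI-PI-treated leaves 0 and 2, 0 and 2, and 0 and 1 at 0, 100 and 1000 ppm. Their median log2 fold changes in GL were 0.16, 0.03 and −0.075, and under PSI-PI −0.28, 0.10 and −0.01, beside 0 to 0.03 for all genes. The shares of all genes called in these comparisons are those given above.

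Of 10 clock genes (CCA1, LHY, TOC1, PRR9, PRR7, PRR5, GI, ELF3, ELF4 and LUX), none was called for PSI-PI at 0 ppm, 2 were upregulated at 100 ppm, 4 at 400 ppm and 3 at 1000 ppm, and none was downregulated. Of all genes, 4.51%, 6.64%, 13.8% and 6.89% were higher at these levels. The median log2 fold changes of the clock genes were −0.03, 0.31, 0.51 and 0.34, beside −0.01 to 0.00 for all genes. In the CO2 comparisons in GL-treated leaves, 2 were up at 0 ppm, 1 was down at 100 ppm and none was called at 1000 ppm, where 17.2%, 17.4% and 0.177% of all genes were higher and 16.6%, 17.1% and 0.200% lower (medians of the clock genes 0.32, −0.17 and −0.05). In PSI-PI-treated leaves, none was called at 0 ppm, 1 was up and 3 were down at 100 ppm and 1 was down at 1000 ppm, beside 9.99%, 11.2% and 0.671% of all genes higher and 11.0%, 11.4% and 1.01% lower (medians −0.215, −0.36 and −0.23).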

How the data were processed

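RNA sequencing of 32 Arabidopsis leaves was analysed from the table of normalized counts that the authors deposited. Per the labels and the study's methods, reads were quantified with Salmon (version 0.12) against TAIR10 and scaled with DESeq2. The deposited signal, a normalized count, was not whole in 95% of entries, and the depth in reads is not given in the sources used here, so count models such as edgeR were not run. A second deposited table holds the authors' own log2 fold changes and p-values, which were not used.

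Genes with a total of at least 10 normalized counts over all leaves were kept (21469 of 21525), and log2(value + 1) was fitted with limma (version 3.58.1 in R 4.3.3) on the 8 groups with 24 residual degrees of freedom. Fold changes are on this scale, which understates changes of low genes. Within each comparison, p-values were adjusted over all genes by the Benjamini-Hochberg method, and a gene was called at an adjusted p under 0.05. The fit was tested on simulated data.

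Alternatives were no filter, a filter of 10 normalized counts in at least 4 leaves, pseudocounts of 0.5 and 5, quantile normalization, a fit of only the leaves compared, a replicate block and leaving out each leaf. Leaving out all leaves numbered 1 was added after seeing the data. Members with values in every leaf were, per comparison, the up to 3 largest rises and falls of at least 2-fold with a mean of at least 10, and COL2. Leaf values of other members, and of these in further comparisons, were added after their values were seen. The members, gene lists and rules were chosen with earlier results of these data known. Sequences and gene positions are from RefSeq on TAIR10.1, read with Python 3.11.15 and Biopython 1.88, and all 32 members matched by locus tag.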

Additional observations from a re-analysis of the deposited data

Results flagged for a closer look

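Among the 10 members named by the rule, 80 groups of 4 leaves were tested for a leaf far from the other 3 (Dixon's ratio above its 95% critical value, which chance passes in about 1 of 20 groups), and 4 passed. BBX14 in GL-treated leaf 1 at 0 ppm had 5272 normalized counts, against 3783 to 3989 in the other 3 leaves. BBX14 in PSI-PI-treated leaf 1 at 400 ppm had 3548, against 1505 to 1816. BBX8 in PSI-PI-treated leaf 1 at 400 ppm had 1150.5, against 883 to 911. BBX17 in PSI-PI-treated leaf 3 at 0 ppm had 198, against 75.7 to 83.3. Of these 4 leaves, 3 are numbered 1.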

How the results depend on the processing

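Of 95 calls of a member in a comparison, 48 held under every alternative, 47 were lost under at least 1 (10 of them only with a single leaf left out) and 0 reversed. Quantile normalization lost 13 calls, the fit of only the leaves compared 21, leaving out all leaves numbered 1 lost 11, no filter and a pseudocount of 0.5 lost 1 each, and the stricter filter and a pseudocount of 5 lost 0. In the fit of only the leaves compared, the number of members called was 1 for PSI-PI against GL at 0 ppm (7 with all leaves), 6 at 1000 ppm (12), 1 for 0 against 400 ppm in PSI-PI (5), 1 for 1000 against 400 ppm in PSI-PI (2) and 3 for the interaction at 100 ppm (0). The 1 member at 1000 against 400 ppm in PSI-PI was BBX11 (limma adjusted p = 0.0436), while BBX8 (0.0597) and BBX28 (0.0533) lost their calls. Without all leaves numbered 1, a setting chosen after seeing the data, the number of members called was 11 for PSI-PI against GL at 0 ppm (7), 1 for 1000 against 400 ppm in GL (0) and 4 for the interaction at 0 ppm (0). With single leaves left out, the counts ranged from 5 to 10, 9 to 12, 14 to 16 and 9 to 13 for PSI-PI against GL at 0, 100, 400 and 1000 ppm, from 10 to 18 and 10 to 12 for 0 and 100 against 400 ppm in GL, from 3 to 7, 6 to 11 and 0 to 3 for 0, 100 and 1000 against 400 ppm in PSI-PI and from 0 to 3 for the interaction at 0 ppm, and were 0 for the other comparisons. The interaction count of 3 came without PSI-PI leaf 4 at 0 ppm, and the count of 3 for 0 against 400 ppm in PSI-PI without leaf 1 at 0 ppm. The causes were not tested. Read depth behind each value is unknown here, which limits what can be said of members such as CO and BBX10.

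The labels do not say what a replicate number shares, and in none of the 10 comparisons were all 4 correlations of same-numbered leaves over 0.1 (range −0.505 to 0.283), so the leaves were not treated as paired. Between 0 and 6 of the 8 leaves compared correlated best with their own number. With the replicate block, 8, 11, 17 and 13 members were called for PSI-PI against GL from 0 to 1000 ppm, 16, 14 and 0 for the CO2 levels in GL, 5, 14 and 2 in PSI-PI, and 0 for the 3 interactions. The block lost 2 of the 95 calls and added 7, among them BBX31 at 0 ppm (adjusted p = 0.0136) and BBX14 at 1000 ppm (0.0310) for PSI-PI against GL.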

Other observations

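The number of a leaf went with the level of some members across groups. BBX17 was highest in leaf 1 in 7 of 8 groups, BBX18 and BBX24 were lowest in leaf 1 in 6 of 8, and BBX29 was highest in leaf 4 in 6 of 8. Over 19491 genes, 1.94% were lowest and 1.73% highest in leaf 1 in at least 6 of 8 groups. The same shares were 0.287% and 0.236% for leaf 2, 0.0821% and 0.0616% for leaf 3, and 0.759% and 0.929% for leaf 4. What a leaf number stands for is not given in the labels, and its part in the results was not tested.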
